A study of Mus musculus with 6 samples.

Results

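The Btg and Tob genes encode the antiproliferative proteins of the BTG domain family, and the Ypel genes encode the small zinc-binding proteins named after yippee of Drosophila. Their RNA was followed in thymic lymphomas from 6 mice with little Ikaros, each tumour on 1 microarray. Members were all probe sets whose annotated symbol was exactly Btg1, Btg2, Btg3, Tob1, Tob2, Ypel1, Ypel2, Ypel3 or Ypel5. These were 21 of the 45101 probe sets, and they covered 8 of the 9 genes. Btg3 had no probe set of its own, since the one listed for it also carries the symbol of another gene, and its expression is not analysed here. The Notch1f/f group was 3 tumours of mice aged 8 to 10 weeks, whose genotype was IkL/L at the Ikaros gene, Notch1f/f and CD4-Cre+, so that Cre could delete the floxed start of Notch1. The Notch1+/+ group was 3 tumours of mice aged 18 to 20 weeks, which were likewise IkL/L and CD4-Cre+ but Notch1+/+. All 6 mice thus carried 2 copies of IkL, an Ikaros allele with lowered expression, and Cre under Cd4 control, which acts in developing thymocytes and their descendants. Genotype and age changed together and cannot be told apart. The labels call the samples transformed T cells and give disruption of the tumour, with no sort, so that fewer cells of a type and less RNA per cell cannot be told apart either.

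Btg and Tob proteins carry an amino-terminal BTG domain that binds the Caf1 deadenylases Cnot7 and Cnot8, and through them brings the CCR4-NOT complex to messenger RNAs, whose poly(A) tails it shortens. In mouse T cells, Btg1 and Btg2 are known to help keep resting cells quiescent, and Tob1 to restrain activation. Btg2 is a p53 target and an immediate-early gene. Ypel proteins are conserved from yeast to mammals and are found in the nucleus, at centrosomes and on the mitotic spindle. Human YPEL3 slows growth and can bring on senescence, and YPEL5 is a subunit of the CTLH ubiquitin ligase.

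Btg1, Ypel3 and Ypel5 were higher in every Notch1f/f tumour than in any Notch1+/+ tumour, on all of their probe sets, whereas Tob1, Tob2, Ypel1, Ypel2 and Btg2 overlapped between the groups. Btg1 was 2.03-fold higher by the ratio of mean intensities on the probe set with its highest mean, Ypel3 5.21-fold and Ypel5 3.46-fold. Of the 21 probe sets, 19 passed a filter on dim signals. The groups did not overlap on 6 of these 19, all higher in the Notch1f/f tumours, where 8.13% of all 27022 tested probe sets were higher without overlap and 10.4% lower. A difference of at least 2-fold without overlap was found for 5 of the 19, against 1.17% of all tested probe sets. None of the 19 was among the probe sets called at an adjusted p of 0.05 in limma (0.0185% of all tested), and 6 had an unadjusted p under 0.05 (13.5% of all tested). The log2 difference was above 0 on 15 of the 19, where it was above 0 in 45.0% of all tested probe sets, and on 7 of the 8 genes by their probe sets of highest mean, where it was above 0 in 48.4% of 12043 genes. The groups did not overlap in either direction in 18.6% of all tested probe sets. The genes were chosen from this contrast, in which the intensities of Btg1 and Ypel3 were known to be high in the Notch1f/f tumours, so these shares describe the members and nothing is read from them. The median log2 difference over the 8 genes, each by the probe set with its highest mean, was 0.61, and over all tested probe sets it was -0.04. Leaving out Notch1f/f tumour 1 gave 0.39, and leaving out Notch1f/f tumour 2 gave 0.78.

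**Figure D1:**
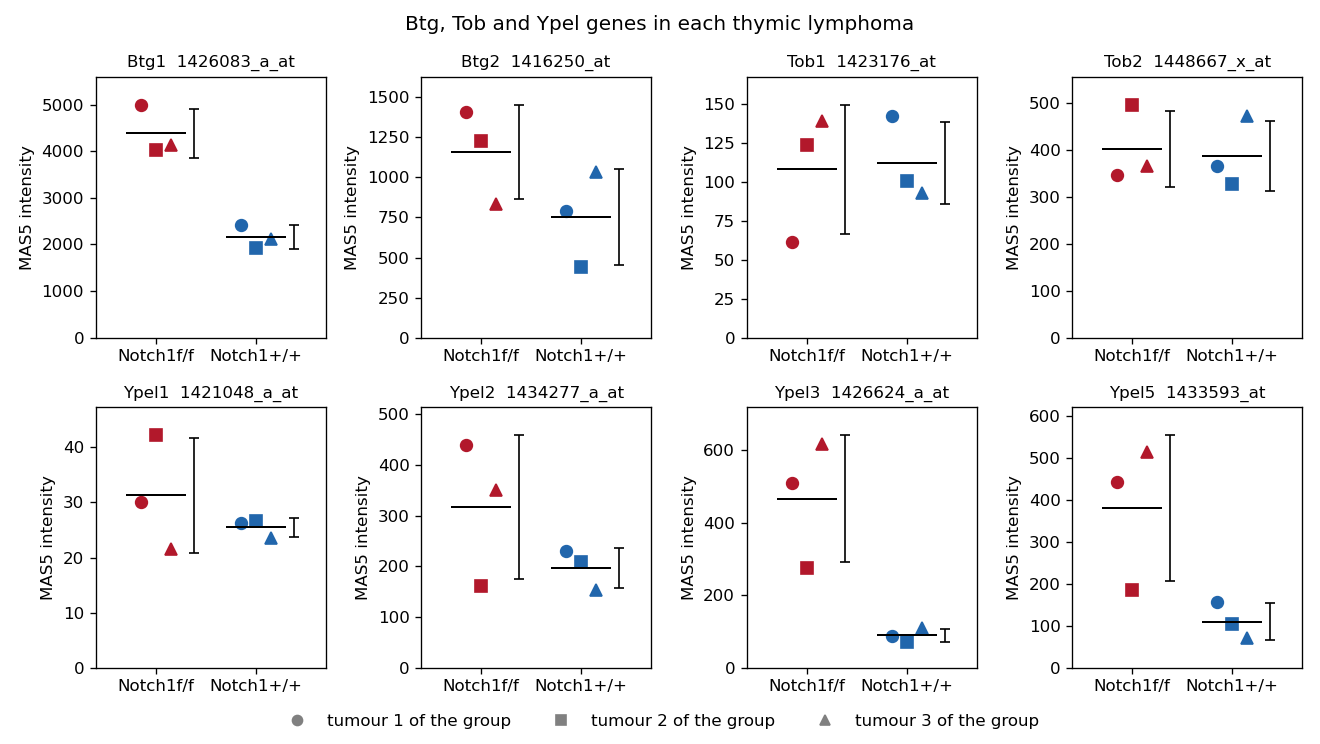
MAS5 intensity (linear, from 0) of each gene in the 3 Notch1f/f tumours (red) and the 3 Notch1+/+ tumours (blue), for the probe set with the highest mean of its gene. Points are tumours, horizontal lines are group means and bars are ± 1 SD (n = 3). Btg1, Ypel3 and Ypel5 are the panels in which all red points lie above all blue points.

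Btg1, an antiproliferative gene that lies at a translocation breakpoint in human B cell leukaemia, was read by 3 probe sets. On 1426083_a_at its intensity was 4989, 4029 and 4129 in Notch1f/f tumours 1, 2 and 3, against 2425, 1915 and 2126 in Notch1+/+ tumours 1, 2 and 3. Each Notch1f/f tumour was at least 1.66-fold above the highest Notch1+/+ tumour. The means were 4382 ± 528 in the Notch1f/f tumours, against 2155 ± 256 in the Notch1+/+ tumours (SD, n = 3 each), which gave a log2 difference of 1.02 ± 0.16 (SE) in log2(intensity + 16), a scale that shrinks the differences of dim probe sets. On 1437455_a_at, whose probes likewise match several transcripts of Btg1, the intensity was 2562, 2235 and 2164 in the Notch1f/f tumours, against 1437, 1090.1 and 1248 in the Notch1+/+ tumours, and the log2 difference was 0.88 ± 0.17. On both of these probe sets the 3 tumours of a group lay close together.

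The Btg1 probe set 1442018_at had a different profile. Its intensity was 606.5, 149 and 617 in Notch1f/f tumours 1, 2 and 3, against 77.2, 61.6 and 58.4 in Notch1+/+ tumours 1, 2 and 3. The groups did not overlap here either, but Notch1f/f tumour 2 stood at 0.243 of the mean of Notch1f/f tumours 1 and 3, where the same ratio was 0.884 on 1426083_a_at. The log2 difference was 2.31 ± 0.47, with a range of 1.98 to 2.95 when each tumour was left out in turn. The part of the transcript that this probe set reads was not analysed here.

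The 250 bases before the annotated start of Btg1, at chr10:96616751-96617000 (GRCm38.p6, plus strand, RefSeq), are shown because they hold the forkhead motif that is also found at Ypel3. Capitals mark TGTTTAC, the reverse complement of the forkhead letters GTAAACA, which starts 204 bases before the start site, and ATTGG, the reverse complement of a CCAAT box, which starts 80 bases before it.
Btg1: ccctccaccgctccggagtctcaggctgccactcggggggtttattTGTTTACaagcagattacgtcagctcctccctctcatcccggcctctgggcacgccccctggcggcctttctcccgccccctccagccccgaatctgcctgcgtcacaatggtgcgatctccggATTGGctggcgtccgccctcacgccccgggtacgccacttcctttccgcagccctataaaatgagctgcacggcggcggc

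Btg2, the closest relative of Btg1, varied more within each group. On 1416250_at its intensity was 1409.6, 1229 and 836.5 in Notch1f/f tumours 1, 2 and 3, against 789.6, 438 and 1032 in Notch1+/+ tumours 1, 2 and 3. Notch1+/+ tumour 3 lay above Notch1f/f tumour 3, so the groups overlapped. The log2 difference was 0.66 ± 0.32, and it was 0.32 without Notch1+/+ tumour 2, the lowest of the 6. The second probe set, 1448272_at, had 617, 612 and 291 in the Notch1f/f tumours, against 439, 212 and 433.5 in the Notch1+/+ tumours, which gave a log2 difference of 0.46 ± 0.36. On both, Notch1f/f tumour 3 was the lowest of its group. This was the tumour with the highest summed intensity of 14 immediate-early genes, 6448, against 2667 and 2446 in Notch1f/f tumours 1 and 2 and 1455 to 2545 in the Notch1+/+ tumours. That sum rested mostly on Fos at 1505, Dusp1 at 1120.2 and Jun at 799, while Egr1 had 829 there, against 1403 in Notch1+/+ tumour 1.

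A stretch of the Btg2 promoter, chr1:134079303-134079332 (GRCm38.p6, minus strand, RefSeq), is shown because it carries a cyclic AMP response element. Capitals mark TGACGTCA, the full element, which starts 166 bases before the start site, and TTCCCAAT. These last letters hold TTCCCA, the reverse complement of TGGGAA, and an overlapping CCAAT.
Btg2: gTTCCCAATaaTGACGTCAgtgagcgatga

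Tob1 and Tob2, the larger relatives with a long carboxy-terminal tail that binds poly(A)-binding protein, did not separate the groups. Tob1 had 61.4, 124 and 139.5 on 1423176_at in Notch1f/f tumours 1, 2 and 3, against 142, 101 and 93.3 in Notch1+/+ tumours 1, 2 and 3. Its log2 difference of -0.09 ± 0.32 changed sign with single tumours, at 0.22 without Notch1f/f tumour 1 and 0.07 without Notch1+/+ tumour 1. The other Tob1 probe set, 1440844_at, reached at most 5.3 on any array and did not pass the filter.

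Tob2 was read by 5 probe sets, all tested. On 1448667_x_at, some of whose probes can also match other transcripts, it had 346, 495.5 and 365 in the Notch1f/f tumours, against 365, 327 and 471 in the Notch1+/+ tumours. The 5 log2 differences ran between -0.06 on 1431776_at and 0.27 on 1448666_s_at, each with overlapping groups. The sign of 3 of them depended on single tumours or the normalisation. Within this family, then, the tested probe sets of Btg1 were the only ones without overlap, 3 of 11, where 8.13% of all tested probe sets were higher without overlap.

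Ypel3, the growth-suppressive member, had the widest separation of the groups. Its single probe set, 1426624_a_at, had an intensity of 509, 274 and 616 in Notch1f/f tumours 1, 2 and 3, against 88.2, 71.6 and 109 in Notch1+/+ tumours 1, 2 and 3. The lowest Notch1f/f tumour was 2.52-fold above the highest Notch1+/+ tumour. The means were 466 ± 175 in the Notch1f/f tumours, against 89.5 ± 18.6 in the Notch1+/+ tumours, which gave a log2 difference of 2.13 ± 0.31. With each tumour left out in turn it stayed between 1.90 and 2.46.

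The upstream 250 bases of Ypel3, chr7:126776713-126776962 (GRCm38.p6, plus strand, RefSeq), and 30 bases just inside the transcript, chr7:126776978-126777007, are shown for comparison with Btg1. Capitals mark ATTGG, the reverse complement of a CCAAT box, which starts 54 bases before the start site, and GTAAACA, whose first base is number 26 of the transcript.
Ypel3 upstream: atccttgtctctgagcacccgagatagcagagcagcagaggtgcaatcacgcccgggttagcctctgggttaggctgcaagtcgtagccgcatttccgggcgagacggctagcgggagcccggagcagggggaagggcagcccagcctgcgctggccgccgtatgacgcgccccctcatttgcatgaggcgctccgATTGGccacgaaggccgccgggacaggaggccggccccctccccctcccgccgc
Ypel3 inside: tggtctcggtGTAAACAagtcgaggcggct

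The motifs GTAAACA (forkhead factors such as FOXO), TGGGAA (letters shared by the Notch-regulated factor CSL and by Ikaros), TGACGTCA, CACGTG (the E-box) and CCAAT were searched on both strands of all 32851 windows of 300 bases, 250 before and 50 after a start. They were chosen after the sequences were seen. The 9 genes, Btg3 included, have 11 windows, Btg3 and Ypel5 with a pair of starts each. GTAAACA was in 2 of the 11, those of Btg1 and Ypel3, and in 3.65% of all windows. TGGGAA was in 1 of 11, that of Btg2, and in 25.6% of all. TGACGTCA was in that of Btg2 only among the 11, and in 1.79% of all. CACGTG was in 1 of 11, a Ypel5 window, and in 7.15% of all. CCAAT was in 10 of 11, all but that of Tob2, and in 37.4% of all, and the member windows had 57.7% to 76.3% G and C, where the median of all windows was 52.7%. A match describes letters, not a bound site.

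Ypel5, the most divergent Ypel protein and a CTLH subunit, was higher on both of its probe sets. On 1433593_at it had 443, 186 and 515 in Notch1f/f tumours 1, 2 and 3, against 157, 104 and 70.3 in Notch1+/+ tumours 1, 2 and 3. Notch1f/f tumour 2 was 1.18-fold above Notch1+/+ tumour 1, so the gap between the groups was small beside the spread within them. The log2 difference was 1.60 ± 0.40. On 1451196_at Ypel5 had 304, 169 and 335 in the Notch1f/f tumours, against 158, 108 and 80.3 in the Notch1+/+ tumours, which gave a log2 difference of 1.11 ± 0.32. The 6 tumours stood in the same order on both probe sets.

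Ypel2 was high in only some Notch1f/f tumours. On 1434277_a_at it had 439, 162 and 351 in Notch1f/f tumours 1, 2 and 3, against 229.9, 209 and 154 in Notch1+/+ tumours 1, 2 and 3. Notch1f/f tumours 1 and 3 lay above all Notch1+/+ tumours and tumour 2 among them. The log2 difference was 0.55 ± 0.35. Without Notch1f/f tumour 2 it was 0.95, and with that tumour kept but tumour 1 left out it was 0.28. The probe set 1454901_at gave 0.57 ± 0.33, with tumour 2 again among the Notch1+/+ values, and 1453414_at reached at most 5.5 and did not pass the filter.

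Ypel1, a close relative of Ypel2 and Ypel3, was dim on its 3 probe sets, with no intensity above 42.2 on any array. Its log2 differences were 0.17 ± 0.24 on 1421048_a_at, -0.41 ± 0.22 on 1431781_at and -0.13 ± 0.17 on 1431782_s_at, which differ in sign. The paralogs Btg4 and Ypel4, which were not members, did not pass the filter.

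**Figure D2:**
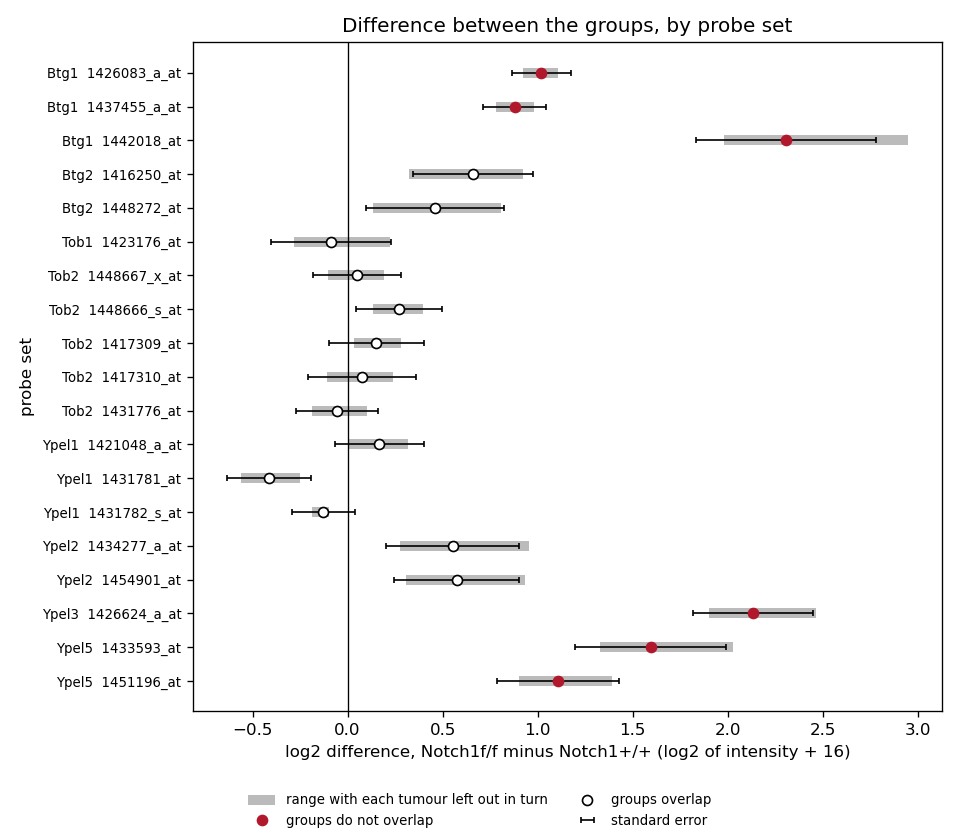
Log2 difference between the Notch1f/f and the Notch1+/+ tumours for the 19 tested probe sets, with moderated standard errors (bars) and the range obtained with each tumour left out in turn (grey). Red points are the 6 probe sets whose groups do not overlap, all of Btg1, Ypel3 and Ypel5. The differences run between -0.41 for a dim Ypel1 probe set and 2.31 for a Btg1 probe set.

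Ypel2, Ypel3 and Ypel5 had their lowest Notch1f/f value in tumour 2, which Ypel1 did not. The highest was tumour 1 for Ypel2 and tumour 3 for Ypel3 and Ypel5. Tumour 2 was the lowest of its group on all 5 tested probe sets of Ypel2, Ypel3 and Ypel5. It was the lowest on 2 of the 14 other tested member probe sets, both of Btg1. Over all tested probe sets it was the lowest of its group in 30.4%, and in 57.3% of those that were higher without overlap. The intensity of tumour 2 over the mean of Notch1f/f tumours 1 and 3 was 0.487 for Ypel3, 0.387 for Ypel5 on 1433593_at and 0.410 for Ypel2 on 1434277_a_at. For Btg2 on 1416250_at it was 1.09, so Btg2 did not share this profile. Without Notch1f/f tumour 2, the groups did not overlap on 9 of the 19 probe sets, 8 higher and 1 lower, where 15.8% of all tested probe sets were then higher without overlap and 21.5% lower.

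**Figure D3:**
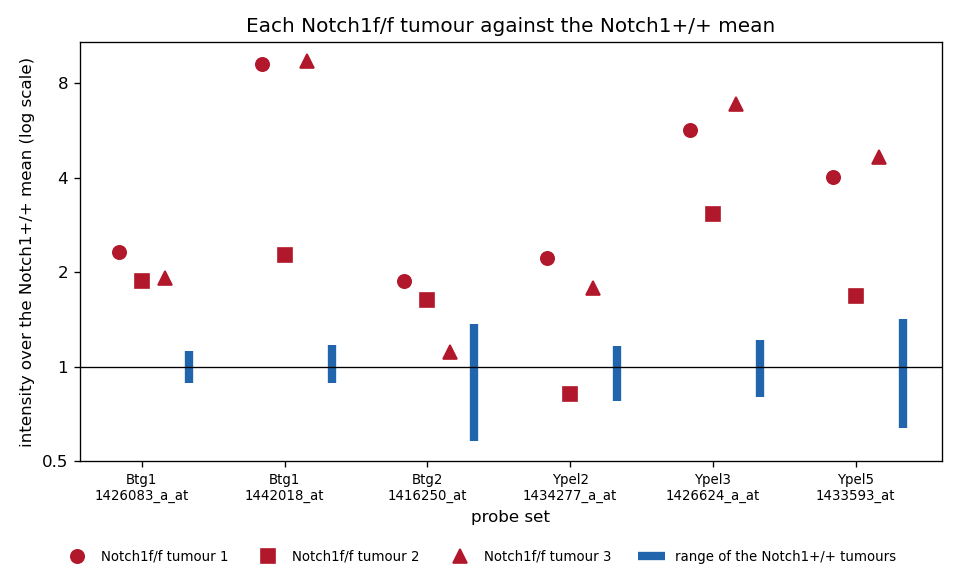
Intensity in each Notch1f/f tumour (red symbols) divided by the Notch1+/+ mean, on a log axis, for 6 probe sets. Blue bars span the Notch1+/+ tumours. Notch1f/f tumour 2 (square) was 3.06-fold above the Notch1+/+ mean for Ypel3, 1.68-fold for Ypel5 and 0.819-fold for Ypel2, while for Btg1 on 1426083_a_at the 3 Notch1f/f tumours were 1.87-fold to 2.31-fold above it.

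Over the whole array, too, Notch1f/f tumour 2 lay between the other Notch1f/f tumours and the Notch1+/+ tumours. On the first principal component of the tested log2 values, which held 39.3% of the variance, it had a score of 2.39, where Notch1f/f tumours 1 and 3 had -42.1 and -66.96 and the Notch1+/+ tumours 29.3 to 41.0. A sum over genes of cell division also put Notch1f/f tumour 2 between them. The summed intensity of 19 proliferation markers was 23046, 31794 and 23946 in Notch1f/f tumours 1, 2 and 3, against 35197, 34321 and 33721 in Notch1+/+ tumours 1, 2 and 3. In this sum Notch1f/f tumour 2 was nearest to the Notch1+/+ tumours, as it was for Ypel2, Ypel3 and Ypel5. Single markers did not all have this order. Mki67 had 2365, 2323 and 1824 in Notch1f/f tumours 1, 2 and 3, against 2764, 2445 and 2130 in Notch1+/+ tumours 1, 2 and 3. Of the 19 markers, 18 were below 0 in log2 difference, with a median of -0.45, and the groups did not overlap on 7, all lower, where 9.17% of 12043 genes were lower without overlap. None passed limma at an adjusted p of 0.05 (0.0415% of genes), and 9 were lower at an unadjusted p under 0.05 (6.15% of genes). Tyms, which makes thymidylate, had 59.0, 60.6 and 49.2 in the Notch1f/f tumours, against 144, 119 and 119 in the Notch1+/+ tumours. Mcm3, a subunit of the replicative helicase, had 813, 1594 and 883 in the Notch1f/f tumours, against 1962, 1822 and 1824 in the Notch1+/+ tumours. Aurkb, the mitotic kinase Aurora B, had a log2 difference of -0.65 ± 0.21. The 13 G1 cyclins, kinases and Rb family genes had a median of -0.30, with 10 below 0. Ccnd1, the D-type cyclin that Btg and Tob proteins are known to repress in other cells, had 24.8, 15.1 and 32.4 in the Notch1f/f tumours, against 118, 393 and 96.8 in the Notch1+/+ tumours, which gave a log2 difference of -2.22 ± 0.46 without overlap. The other D-type cyclins overlapped between the groups, Ccnd2 at 0.31 ± 0.23 and Ccnd3 at -0.18 ± 0.29. An action of Btg and Tob proteins on these genes was not tested. In the same list Rbl1, a pocket protein, had -1.09 ± 0.41, and Rbl2, the pocket protein of resting cells, was higher at 0.53 ± 0.22. None of the 13 passed limma at an adjusted p of 0.05, and 4 had an unadjusted p under 0.05, 1 higher (6.86% of genes) and 3 lower (6.15% of genes).

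The CCR4-NOT deadenylase, which Btg and Tob proteins recruit, was read by 11 measured genes. Of these, 5 were above 0 and 6 below, with a median of -0.05 beside -0.01 over all 12043 genes, and none had an unadjusted p under 0.05 or passed limma after adjustment. The catalytic subunits that bind the BTG domain had log2 differences of 0.16 ± 0.19 for Cnot7 and 0.09 ± 0.24 for Cnot8. The second pair of catalytic subunits had -0.19 ± 0.22 for Cnot6 and 0.14 ± 0.23 for Cnot6l. A pair of structural subunits was lower without overlap (9.17% of genes) by small amounts, Cnot3 at -0.32 ± 0.20 and Cnot9 at -0.32 ± 0.19, and Cnot2 had 0.38 ± 0.23.

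Other proteins that bind or shorten poly(A) tails, or bring deadenylases to AU-rich messages, were more mixed. Of 11 measured, 8 were above 0 with a median of 0.09, and 3 were higher without overlap (9.15% of genes). Zfp36, which encodes the AU-rich element binding protein tristetraprolin, had 408, 496 and 1131 in the Notch1f/f tumours, against 189, 111 and 164 in the Notch1+/+ tumours, which gave a log2 difference of 1.91 ± 0.37. Its relative Zfp36l1 had 0.95 ± 0.22, and Pan3, of the PAN2-PAN3 deadenylase, 0.61 ± 0.21. None of the 11 passed limma at an adjusted p of 0.05, and these 3 had an unadjusted p under 0.05, all higher (6.86% of genes).

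Among 8 measured other partners of Btg and Tob proteins, 4 were above 0 and 4 below. Prmt1, the arginine methyltransferase that binds Btg1 and Btg2, had a log2 difference of -0.26 ± 0.23. Prmt5, a related enzyme, had 353, 391.5 and 403 in the Notch1f/f tumours, against 716, 725 and 843 in the Notch1+/+ tumours, -0.96 ± 0.18 without overlap. Smad4, the shared Smad, had 0.49 ± 0.19, and Smad3 0.58 ± 0.27. None passed limma at an adjusted p of 0.05. At an unadjusted p under 0.05 in limma, Prmt5 was lower (6.15% of genes) and Smad4 higher (6.86% of genes).

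The CTLH ubiquitin ligase, to which Ypel5 belongs, had 10 measured genes with a median of 0.22, 6 above 0 and 4 below. Gid8, a scaffold subunit, had 427, 229 and 322 in the Notch1f/f tumours, against 197, 163 and 149.6 in the Notch1+/+ tumours, which gave a log2 difference of 0.85 ± 0.26. It alone of the 10 was higher without overlap (9.15% of genes). Rmnd5a, a RING subunit, had 0.54 ± 0.24 and Ranbp10 0.59 ± 0.26, both with overlapping groups. Gid4, a substrate receptor, was lower without overlap (9.17% of genes), and Ranbp9, the founding subunit, had 0.15 ± 0.20. None of the 10 passed limma at an adjusted p of 0.05, and 3 had an unadjusted p under 0.05, all higher (6.86% of genes).

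Genes linked to T cell quiescence were mostly higher, and some of them were put on the list with their values known, so the count is not independent. Of 17 measured, 12 were above 0 with a median of 0.47, 9 were higher without overlap (9.15% of genes) and none lower (9.17% of genes). None passed limma at an adjusted p of 0.05, and 7 had an unadjusted p under 0.05, all higher (6.86% of genes). Cdkn1b, the inhibitor p27, had a log2 difference of 1.54 ± 0.25, Ccr7, a lymph node homing receptor, 2.01 ± 0.32, and Bach2, a transcription factor of resting lymphocytes, 1.26 ± 0.25. The 12 measured p53 targets, a set that Btg2 belongs to by its known control, had a median of 0.17 with 7 above 0, and the groups overlapped on every one. Bbc3, a pro-apoptotic gene, had 1.55 ± 0.57, Sesn1 0.53 ± 0.27 and Trp53inp1 0.31 ± 0.16. None of the 12 passed limma at an adjusted p of 0.05, and 1 was higher at an unadjusted p under 0.05 (6.86% of genes). Of the 14 immediate-early genes 13 were above 0 with a median of 0.69, and 3 were higher without overlap (9.15% of genes), Egr2, Egr3 and Klf6. None of the 14 passed limma at an adjusted p of 0.05, and 3 had an unadjusted p under 0.05, all higher (6.86% of genes).

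**Figure D4:**
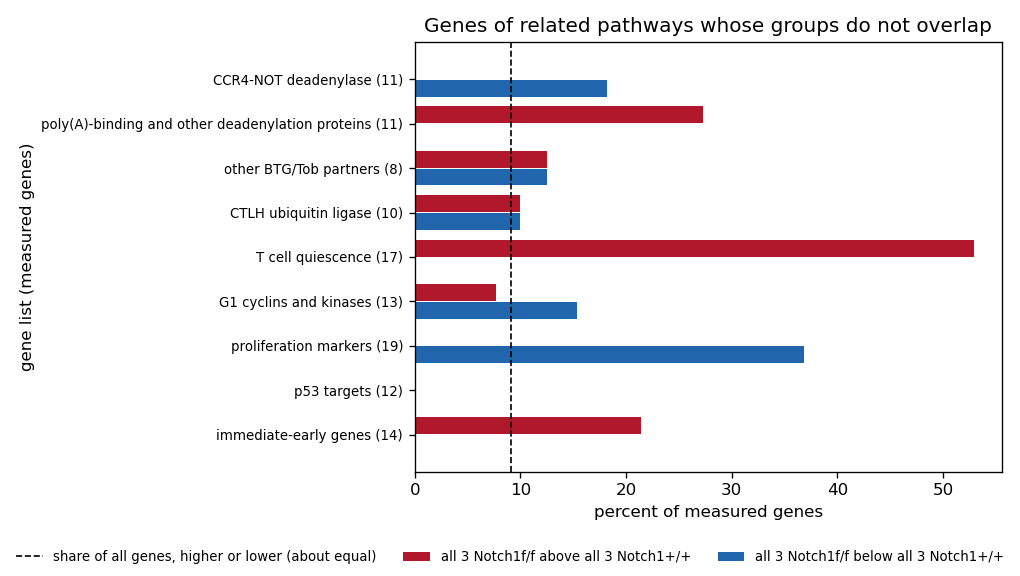
Percent of the measured genes of each list (number in brackets) that were higher (red) or lower (blue) in all 3 Notch1f/f tumours than in all 3 Notch1+/+ tumours. The dashed line is the share of all 12043 genes, 9.15% higher and 9.17% lower. CCR4-NOT genes had none higher, the quiescence list had 9 of 17 higher and the proliferation markers 7 of 19 lower.

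The genes whose log2 values most resembled those of Btg1 over the 6 tumours were Bach2, with Pearson's r of 0.993, Ipcef1 (0.991), Eif4ebp2 (0.989), which encodes a repressor of cap-dependent translation, and 1700096K18Rik (0.989). For Ypel3 they were Ubn1, a histone chaperone subunit (0.995), Zfp784, Acsf2 and Ctdsp2 (each 0.994), the last a small phosphatase of the CTD family. Bach2 had 98.2, 65.7 and 61.1 in the Notch1f/f tumours, against 25.8, 18.2 and 20.3 in the Notch1+/+ tumours. Ctdsp2 had 1320.5, 1031 and 1464 in the Notch1f/f tumours, against 635, 504 and 655 in the Notch1+/+ tumours. With 6 tumours in 2 groups and 12043 genes to choose from, a gene that separates the groups evenly can reach such values, and they serve only to name the genes. Between the members, r was 0.944 for Btg1 with Ypel3, 0.880 for Btg1 with Ypel5 and 0.908 for Ypel3 with Ypel5. For Btg1 it was 0.72 with Btg2 and -0.21 with Tob1. Btg1, Ypel3 and Ypel5 each separate the groups, so a high r between them follows largely from the group difference.

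Of the nearest measured genes beside Btg1, Ypel3 and Ypel5 in the genome, only Tbx6 was higher without overlap (9.15% of genes). Gdpd3 and Lbh were above 0 in log2 difference with overlapping groups. The nearest measured genes on each side of Btg1 were Eea1 and Dcn, with log2 differences of -0.43 ± 0.28 and -0.36 ± 0.27. Beside Ypel3, Tbx6, a T-box factor, was dim at 17.5 ± 8.00 in the Notch1f/f tumours, against 7.40 ± 1.92 in the Notch1+/+ tumours, without overlap. Gdpd3, on its other side, had 263 ± 387 in the Notch1f/f tumours, where tumour 3 alone reached 709, and 75.8 ± 49.8 in the Notch1+/+ tumours. Beside Ypel5, Lbh, a transcriptional cofactor, had 761 ± 221 in the Notch1f/f tumours, against 421 ± 175 in the Notch1+/+ tumours, with overlap, which gave a log2 difference of 0.88 ± 0.35. Alk, on the other side of Ypel5, was dim at 8.03 ± 3.40 in the Notch1f/f tumours and had a log2 difference of 0.01 ± 0.23. The other neighbours of members, those of Btg3 included, ran between -0.70 for Atp2b4 near Btg2 and 0.20 for Tef beside Tob2, and of these Phf5a beside Tob2 was lower without overlap, at -0.39 ± 0.20.

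All arrays had been scaled to the same trimmed mean, and Pearson's r between arrays over the tested probe sets ran between 0.918 and 0.962. Notch1 had 3294, 3043 and 3419 on 1418634_at in the Notch1f/f tumours, against 3637, 2532 and 2838 in the Notch1+/+ tumours, and 2026, 1346 and 2212 on 1418633_at in the Notch1f/f tumours, against 1792.5, 656 and 568 in the Notch1+/+ tumours. These do not check the deletion, because such arrays measure the 3' ends of messages. T cell markers were high in all tumours. Their summed intensity over 11 genes was higher without overlap, at 24654 to 28846 in the Notch1f/f tumours, against 21526 to 23269 in the Notch1+/+ tumours. Of the 11, 9 were above 0, and 2 were higher without overlap (9.15% of genes), Cd8a at 0.73 ± 0.24 and Cd3e at 0.56 ± 0.22. None of the 11 passed limma at an adjusted p of 0.05, and these 2 had an unadjusted p under 0.05, both higher (6.86% of genes). Most macrophage markers separated the groups in the same direction as Btg1, Ypel3 and Ypel5. Of 9 measured, 8 were above 0 and 6 were higher without overlap (9.15% of genes). None of the 9 passed limma at an adjusted p of 0.05, and 7 had an unadjusted p under 0.05, all higher (6.86% of genes). The summed intensity of the 9 was 1535, 1499 and 2919 in Notch1f/f tumours 1, 2 and 3, against 266.5, 882 and 957.5 in Notch1+/+ tumours 1, 2 and 3. The sums of B cell markers were 88.1 to 331 in the Notch1f/f tumours, against 55.9 to 221 in the Notch1+/+ tumours, over 7 genes of which Pax5 and Ebf1 did not pass the filter. The overlap of these sums rested on Blk, at 151 in Notch1+/+ tumour 2. Of the 5 measured B cell markers 4 were above 0. Cd79a and Cd79b, parts of the B cell receptor, were higher without overlap (9.15% of genes), at 1.04 ± 0.52 and 1.02 ± 0.29. Cd79a was dim outside Notch1f/f tumour 3, so its difference rested mostly on that tumour. Of 3 measured dendritic cell markers 3 were above 0, while Flt3, Xcr1, Siglech and Cd209a did not pass the filter. Itgae was higher without overlap (9.15% of genes). It had 15.4, 22.2 and 95.4 in Notch1f/f tumours 1, 2 and 3, against 5.2, 14.0 and 6.1 in the Notch1+/+ tumours, so it was dim outside Notch1f/f tumour 3. Fibroblast markers were below 0 in log2 difference on 7 of 7 measured genes, all with overlapping groups, with sums over 8 genes of 897 to 1992 in the Notch1f/f tumours, against 1447 to 2655 in the Notch1+/+ tumours. Pdgfrb was the largest part of each sum, at 813 to 1827 in the Notch1f/f tumours, against 1103 to 1976 in the Notch1+/+ tumours. Neutrophil marker sums over 7 genes were lower without overlap but by a narrow gap, at 125 to 202 in the Notch1f/f tumours, against 208 to 345 in the Notch1+/+ tumours. Of 5 measured, 4 were below 0 and 1 above, and 2 were lower without overlap (9.17% of genes), Ngp and Camp. None of the 5 passed limma at an adjusted p of 0.05, and 1 was lower at an unadjusted p under 0.05 (6.15% of genes). The sums of the dendritic cell, erythroid, endothelial and thymic epithelial lists overlapped between the groups. The part of these cells in the values of Btg1, Ypel3 and Ypel5 was not tested. The array controls for 18S ribosomal RNA also separated the groups in the direction of these genes. The 3' control had 319, 287 and 249.5 in the Notch1f/f tumours, against 64.8, 103.4 and 125 in the Notch1+/+ tumours. Whether these controls followed the genes from tumour to tumour, and their part in the differences, was not tested either. The intensity of the 3' over the 5' beta-actin control, a measure of RNA integrity, was 1.35 to 1.64 in the Notch1f/f tumours, against 1.36 to 2.23 in the Notch1+/+ tumours.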

How the data were processed

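RNA of 6 thymic lymphomas was hybridised to Affymetrix 3' expression arrays, per the labels. The authors deposited 1 intensity per probe set and array, not on a log scale, made with MAS5 per the submitters' processing notes (no version). On all arrays the mean intensity without the outer 2% on either side was 100.0. Symbols are those of the platform annotation. Their Entrez identifiers were looked up in RefSeq (GRCm38.p6), and 0 symbols changed. Probe sets with several symbols were left unnamed.

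For testing, 16 was added to each intensity before log2. Leaving out 64 control probe sets and those below the 40th percentile of mean log2 value (4.56) left 27022. A linear model with moderated variances and a trend (limma 3.58.1, R 4.3.3, lmFit and eBayes) gave Notch1f/f minus Notch1+/+, with p-values from a two-sided test and Benjamini-Hochberg adjustment. The script was tested on simulated data. Replicate numbers only name tumours. The tumours came from separate mice, and 3 arrays per group limit the precision. A gene in a list is read by its probe set of highest mean.

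The members and lists were chosen with earlier results of these data known, and the promoter motifs after the sequences had been seen. The genes named are the members, in each list up to 3 genes of lowest p-value, direct partners (Cnot6, Cnot6l, Cnot7, Cnot8, Prmt1, Ranbp9), Notch1, the 4 genes most like Btg1 and Ypel3, and the nearest measured neighbours of each member. Gid4, Mki67, Blk, Fos, Jun, Dusp1, Egr1, Ccnd2, Ccnd3 and Pdgfrb were named after their values were seen. Alternatives were pseudocounts of 1 and 64, filters, quantile normalisation, median centring, no trend, array weights, another threshold, the mean of probe sets, and each array left out. Python 3.11.15 and matplotlib 3.10.9 drew the figures.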

Additional observations from a re-analysis of the deposited data

Results flagged for a closer look

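Probe sets for 18S ribosomal RNA serve as array controls and took part in no comparison. Each of them had a higher mean on the Notch1f/f arrays. The 3' probe set averaged 285.1 ± 34.7 in the Notch1f/f tumours, against 97.8 ± 30.5 in the Notch1+/+ tumours (SD, n = 3 each). The 5' probe set averaged 217.2 ± 18.5 in the Notch1f/f tumours, against 59.1 ± 32.6 in the Notch1+/+ tumours. The middle probe set averaged 246.7 ± 90.8 in the Notch1f/f tumours, against 95.1 ± 45.1 in the Notch1+/+ tumours. Like Btg1, Ypel3 and Ypel5, these probe sets were higher in the Notch1f/f tumours, and their part in the differences of those genes was not tested.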

How the results depend on the processing

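The 6 member probe sets without overlap stayed 6 under pseudocounts of 1 and 64, quantile normalisation, median centring, a filter at the 60th percentile and none, and numbered 6 to 10 with each tumour left out in turn, where smaller groups overlap less easily (9 without Notch1f/f tumour 2 or Notch1+/+ tumour 3, 10 without Notch1f/f tumour 3). With a tumour left out, 11% to 15.8% of all tested probe sets were higher without overlap and 14% to 21.5% lower. The median log2 difference of the member genes, 0.61, was 0.55 to 0.66 under those settings, 0.56 when probe sets of a gene were averaged, and 0.39 to 0.78 with each tumour left out. The 5 called probe sets over the whole table, none of them a member, became 3 with no filter, 11 with median centring (6 higher and 5 lower, against 2 and 3), 27 with array weights, 40 at a threshold of 0.10 (with 1 probe set each of Btg1 and Ypel3 among them), and 2 to 14 with each tumour left out (2 without Notch1f/f tumour 3, 14 without Notch1+/+ tumour 3). The causes were not tested. With a pseudocount of 1 the log2 difference of Ypel1 on 1431781_at was -0.99 and of Ypel3 2.31, with 64 that of Ypel3 was 1.74. The sign depended on a tumour or on quantile normalisation for Tob1 (1423176_at) and 3 Tob2 probe sets, and for no other member. No paired analysis was possible because the labels give the tumours no shared numbers.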
